A study of Caenorhabditis elegans with 2 samples.

Results

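The proteasome subunit genes of Caenorhabditis elegans were examined for regions recovered by ChIP-seq with SOX-4, a transcription factor of the Sox family, which binds DNA through an HMG box. They were taken by name, as every protein-coding gene of the Ensembl WBcel235 annotation whose symbol begins with pas-, pbs-, rpt- or rpn-, which gave 33 of 19985 coding genes. Of these, 14 encode the core particle (7 alpha subunits, pas-, and 7 beta subunits, pbs-) and 19 the regulatory particle (6 ATPases, rpt-, and 13 non-ATPase subunits, rpn-). The rule uses names alone, although the family itself was picked with earlier results of these data in view.

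The study is a ChIP-seq experiment on whole hermaphrodite L1 larvae, with a single condition and 2 biological replicates. All animals were of strain OP517, which carries the unc-119(tm4063) mutation on chromosome III and the integrated transgene wgIs517, from which SOX-4 is made with a C-terminal GFP-FLAG tag. They had been synchronized as larvae starved after bleaching, were collected 6 hours later, and their chromatin was precipitated with an antibody against GFP. No animals without the tagged protein were analysed here, so the values below describe regions recovered with the tag and do not show that a region needs SOX-4, and whole animals mix all tissues.

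The proteasome degrades proteins that carry ubiquitin chains. Its core particle is a barrel of stacked rings, in which the outer alpha subunits gate the entrance and the inner beta subunits cut the substrate. The regulatory particle caps the barrel: its base holds a ring of RPT ATPases that unfold substrates, and its lid and associated RPN subunits bind and remove ubiquitin. In C. elegans the genes of both particles are known to be induced together by the transcription factor SKN-1A when the proteasome is impaired.

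The authors deposited 1 list of 30000 regions for both replicates together (the pooled list), 1 for each replicate, and an optimal list of 1497 peaks that passed their test of reproducibility. The 30000 regions include background, and the optimal peaks are the 1497 pooled regions of highest signal. Signal is the authors' own value for each region, comparable within a list only. The window of a gene began 1000 bp upstream of its annotated 5′ end and ended 200 bp downstream. A gene was given every region with its summit in the window, and its value is that of the strongest one. Read depth is unknown, and all comparisons between genes are descriptions without a test, since genes of 1 genome are not replicates and the family was not chosen independently of these data.

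Proteasome genes held a pooled region more often than other coding genes, and the signals of these regions left a gap between a higher and a lower set. A pooled region lay in the window of 24 of 33 proteasome genes (72.7%, exact 95% interval 54.5 to 86.7), against 37.7% of all 19985 coding genes. An optimal peak lay at 5 of the 24 (20.8%, exact 95% interval 7.13 to 42.2), against 15.0% of all coding genes with a pooled region. These intervals cover the counting of genes only. Counted over all genes, with or without a region, the shares with an optimal peak were 15.2% of 33 proteasome genes and 5.65% of 19952 other coding genes. The 5 genes were rpn-11, rpn-3 and rpt-2 of the regulatory particle and pas-1 and pbs-4 of the core particle.

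The median pooled signal of the 24 genes was 38.9 (interquartile range 15.4 to 50.1), against 21.5 (16.4 to 33.2) for 7519 other coding genes with a region. From rpn-11 down to rpn-12, 14 genes had signals of 123.5 to 34.6, and the remaining 10 had signals of 13.5 to 22.6, with none between. This split was drawn after the values were seen and was not tested. Of other coding genes with a region, 54.1% lay below the lower edge of the gap and 76.3% below its upper edge, so such values occur elsewhere. The lower set lay near or under the median of other coding genes and close to the weakest region of the list (12.9).

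**Figure D1:**
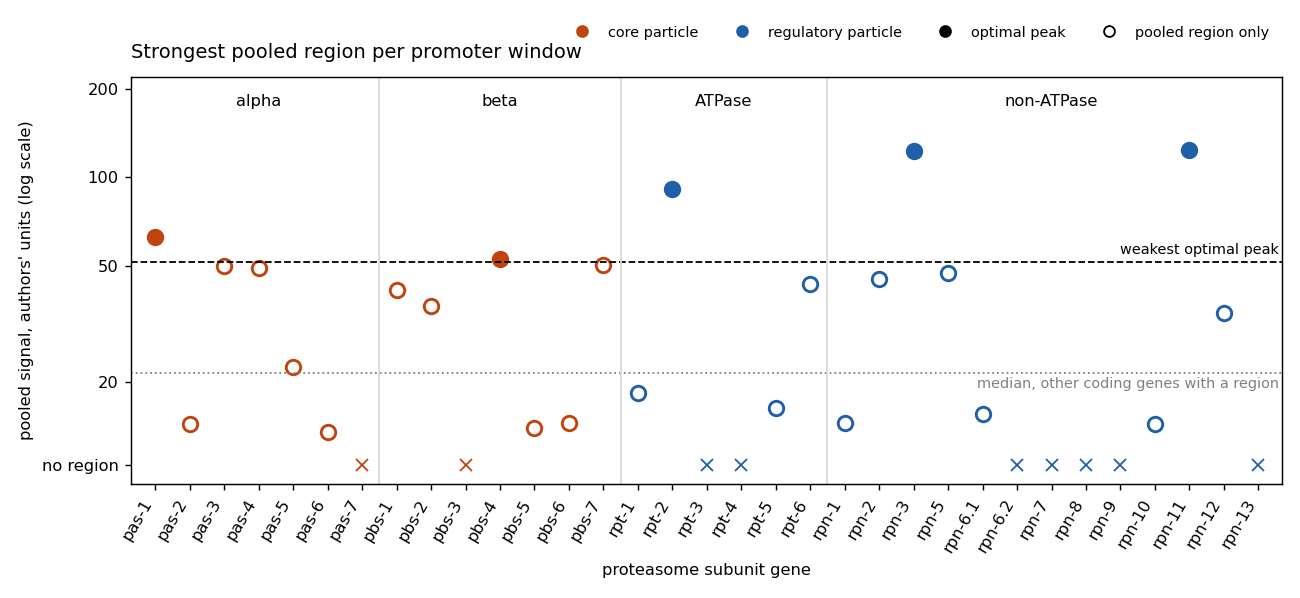
Signal of the strongest pooled region in the promoter window of each of the 33 proteasome genes, in the authors' units on a log axis, by subunit class; filled points are optimal peaks, open points are pooled regions below the optimal list, and crosses are genes with no pooled region. The dashed line marks the weakest optimal peak (51.3), which 5 genes exceed and under which pbs-7, pas-3 and pas-4 lie closely, and the dotted line marks the median of other coding genes with a region (21.5).

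The 3 strongest regions were all at regulatory particle genes. The strongest was at rpn-11, which encodes the metalloprotease of the lid that cuts ubiquitin chains from substrates. Its peak, on chromosome II from 4044364 to 4044759 of ce11, had a pooled signal of 123.5 (rank 329), with the summit 16 bp upstream of the gene's 5′ end. Its signal was 71.1 (rank 259) in replicate 1 and 48.16 (rank 538) in replicate 2, so it was among the 1497 strongest regions of each.

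The peak of rpn-3, a lid subunit, had nearly the same pooled signal, 122.8 (rank 334). It lay on chromosome III from 8447104 to 8447221, with the summit 214 bp upstream of rpn-3 and 230 bp upstream of hsp-110, an Hsp70 co-chaperone gene on the opposite strand. Its signal was 70.3 (rank 270) in replicate 1 and 58.3 (rank 387) in replicate 2. The summit also lay 44 bp from the 5′ end of the noncoding gene C30C11.14, so the peak cannot be given to 1 of the 3 genes.

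The peak of rpt-2, 1 of the 6 ATPases, was on chromosome V from 6017617 to 6018012 with a pooled signal of 91.4 (rank 548). Its signal was 52.3 (rank 472) in replicate 1 and 38.4 (rank 826) in replicate 2. Its summit was midway in a divergent promoter, 146 bp upstream of rpt-2 and 155 bp upstream of aps-1, which encodes a clathrin adaptor subunit, and 36 bp from the 5′ end of the noncoding gene F29G9.10. These 3 regulatory particle genes were the only members in the top 1497 regions of both replicates.

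The 2 optimal peaks of the core particle were weaker. At pas-1, an alpha subunit gene, the peak on chromosome V from 14423356 to 14423751 had a pooled signal of 62.6 (rank 1076). Its signal was 22.3 (rank 2480) in replicate 1 and 40.8 (rank 730) in replicate 2, which places it in the top 1497 of replicate 2 alone. The summit was 936 bp upstream of pas-1 and only 250 bp upstream of rpoa-12, an RNA polymerase I subunit gene that precedes pas-1 on the same strand with a gap of 106 bp.

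The sequences under 4 of these summits, and under that of rpn-12 described below, show the motif matches on which the comparison of sequence turns. They are read from the RefSeq copy of WBcel235, on the strand of the named gene, over 50 bp to each side of the summit. Capitals mark matches to the binding sequence of SKN-1 (WWTRTCAT, where W is A or T and R is A or G), the E-box CANNTG, the GAGA repeat GAGAGA, the Sox core WWCAAWG and the heat shock element unit TTCNNGAA. The windows are chrII:4044512-4044612 (rpn-11), chrIII:8447089-8447189 (rpn-3), chrV:6017765-6017865 (rpt-2), chrV:14423504-14423604 (pas-1) and chrII:11652925-11653025 (rpn-12).
rpn-11: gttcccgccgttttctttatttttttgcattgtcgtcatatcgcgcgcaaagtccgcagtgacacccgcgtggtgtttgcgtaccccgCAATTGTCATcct
rpn-3: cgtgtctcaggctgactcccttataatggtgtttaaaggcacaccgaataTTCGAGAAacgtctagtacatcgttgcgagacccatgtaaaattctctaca
rpt-2: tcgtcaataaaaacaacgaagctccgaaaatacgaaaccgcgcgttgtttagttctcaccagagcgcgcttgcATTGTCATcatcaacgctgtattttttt
pas-1: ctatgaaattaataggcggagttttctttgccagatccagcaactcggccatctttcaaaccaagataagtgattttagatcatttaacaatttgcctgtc
rpn-12: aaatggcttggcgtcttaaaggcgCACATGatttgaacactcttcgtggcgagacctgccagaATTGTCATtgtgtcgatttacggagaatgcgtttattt

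The capitals in rpn-11 hold an E-box (CAATTG) that overlaps the SKN-1 match ATTGTCAT, and rpt-2 and rpn-12 carry the same 8 bases. In rpn-3 they mark a heat shock element unit that covers the summit itself, and in rpn-12 the first capitals are an E-box. The window of pas-1 has none of these 5 motifs, but it holds the shorter Sox core ACAAT. That sequence and the TATA box TATAAA were also searched and are not marked by capitals.

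The other optimal peak, at the beta subunit gene pbs-4, had a pooled signal of 52.7 (rank 1425), near the lower end of the optimal list. Its signal was 27.6 (rank 1546) in replicate 1 and 25.7 (rank 1794) in replicate 2, so it was outside the top 1497 of each replicate by a small margin while inside the pooled one. Its summit lay 113 bp upstream of pbs-4 and in the window of no other coding gene.

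A further 8 proteasome genes lay just below the optimal list, at ranks 1498 to 2994 of the pooled list. These were pbs-7, pas-3, pas-4, rpn-5, rpn-2, rpt-6, pbs-1 and pbs-2, or 33.3% of the 24 members with a region, against 8.59% of 7519 other coding genes. Taking the 2994 strongest regions in place of the 1497, a choice made after the values were seen, brought the count to 13 of 24 (54.2%), against 23.7% of all coding genes with a region. Taking the 748 strongest left 3 of 24, the genes rpn-11, rpn-3 and rpt-2, against 8.99%.

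The nearest 3 below the list belonged to the core particle. The beta subunit gene pbs-7 had a pooled signal of 50.4 (rank 1543), with 22.7 (rank 2410) in replicate 1 and 30.2 (rank 1292) in replicate 2. The alpha subunit gene pas-3 had 50.04 (rank 1564), with 33.7 (rank 1071) in replicate 1 and 23.9 (rank 2090) in replicate 2. The alpha subunit gene pas-4 had 48.9 (rank 1628), with 24.3 (rank 2031) in replicate 1 and 29.6 (rank 1359) in replicate 2. Each of the 3 was inside the top 1497 of 1 replicate and outside that of the other.

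The next 5 were of similar strength. The lid subunit gene rpn-5 had a pooled signal of 47.0, the base scaffold gene rpn-2 had 45.0 and the ATPase gene rpt-6 had 43.3. The beta subunit genes pbs-1 and pbs-2 had 41.4 and 36.4. At pbs-1 the replicates were far apart, with a signal of 30.03 (rank 1349) in replicate 1 and 13.1 (rank 10182) in replicate 2. At pbs-2 the order was the other way, with 13.2 (rank 10711) in replicate 1 and 22.8 (rank 2330) in replicate 2.

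The core and regulatory particles had close medians and differed at the top of the range. A pooled region was found at 12 of 14 core particle genes (85.7%, exact 95% interval 57.2 to 98.2) and at 12 of 19 regulatory particle genes (63.2%, 38.4 to 83.7). An optimal peak was found at 2 of 12 core particle genes (16.7%, 2.09 to 48.4) and at 3 of 12 regulatory particle genes (25%, 5.49 to 57.2). The intervals overlapped widely, and the median signals were 38.9 for the core and 39.0 for the regulatory particle. The order of the optimal shares depended on the setting. It was the other way with the 1497 strongest regions of replicate 2 alone (30% core, 21.4% regulatory), with a window of 2000 bp upstream to 500 bp downstream (33.3% and 21.4%), with any overlap (33.3% and 25%) and with the 2994 strongest regions (58.3% and 50%). The highest core particle value was 62.6, at pas-1, while 3 regulatory particle genes lay between 91.4 and 123.5. Among the 748 strongest regions there were 0 of 12 core particle genes, a count that allows a share of up to 25% (3 divided by 12, an approximate limit).

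By subunit class, 6 of 7 alpha, 6 of 7 beta, 4 of 6 ATPase and 8 of 13 non-ATPase genes held a pooled region. The median signals were 35.8 for alpha, 38.9 for beta, 30.9 for ATPase and 39.8 for non-ATPase genes. Within each class the values spread widely, as in the beta class, where pbs-5 had 13.98 and pbs-4 had 52.7. Of the genes for ubiquitin receptors, rpn-10 had a pooled signal of 14.4, rpn-1 had 14.5 and rpn-13 had no region. The summits of rpn-10 and rpn-1 lay 910 and 846 bp upstream, inside coding exons of the neighbours mrpl-9 and ribo-1.

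The lower set of 10 genes comprised pas-5, pas-2, pas-6, pbs-5, pbs-6, rpt-1, rpt-5, rpn-1, rpn-6.1 and rpn-10. The summits of pbs-5, rpn-1 and rpn-10 lay in a coding exon of the upstream neighbour, and those of pas-6 and rpn-6.1 in an intron of it. The summit of pas-2 lay in an intron of pas-2 itself. Within the lower set, pas-5 was the highest (22.6), and a stronger peak lay just outside its window. That optimal peak (signal 95.4) had its summit 1120 bp upstream of pas-5, between pas-5 and ubc-25, an E2 ubiquitin-conjugating enzyme gene that precedes it on the same strand. At pbs-5 an optimal peak of signal 51.8 lay 1158 bp upstream. Counting regions that overlap the window in place of summits inside it added these 2 genes and gave 7 of 24 with an optimal peak (29.2%). The share over other coding genes with a region was then 13.9% of 8639.

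No pooled region was found in the window of 9 genes. Of these, pas-7, rpt-4, rpn-6.2, rpn-9 and rpn-13 had none in either replicate list as well, which is 15.2% of the members against 44.5% of other coding genes. The other 4 had a region in a replicate list only: pbs-3 in replicate 1 (signal 19.3, rank 3617), rpt-3 in replicate 2 (8.51, rank 26294), and rpn-7 and rpn-8 in both, at ranks from 11957 to 27364. At rpn-9, a lid subunit gene, the nearest pooled region was 36714 bp away. At rpt-4 and rpn-8 the nearest pooled summits lay inside the gene, 469 and 486 bp downstream of the 5′ end, with signals of 25.9 and 41.9. Of the 9 genes, 4 (44.4%) had an upstream neighbour on the same strand within 500 bp, against 4 of the 24 with a pooled region (16.7%). Among other coding genes the shares were 22.1% without and 18.0% with a pooled region. The part of this layout was not tested. Absence from a list of 30000 regions is not absence of signal, since each list stops at that length.

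Both replicates had rpn-11, rpn-3 and rpt-2 among their 1497 strongest regions, and they differed in which other proteasome genes were there. Of the 24 pooled regions, 16 were overlapped by a region of both replicate lists by at least 1 bp and 22 by a region of at least 1 list. The same shares over other pooled regions were not computed, so these counts do not show how usual such overlap is. Counted by window without asking for overlap, 18 of 33 proteasome genes (54.5%) held a region of all 3 lists, against 20.8% of 19952 other coding genes. In the list of replicate 1, 6 of 22 proteasome genes with a region were among the 1497 strongest (27.3%), against 14.6% of all coding genes with a region there. In that of replicate 2 there were 6 of 24 (25%), against 13.9%. In all, 9 proteasome genes were in the top of at least 1 list (34.6% of 26 with a region in either), against 12.7% of 10630 other coding genes. Only 3 of the 9 were in the top of both lists (15.0% of 20 with a region in both), against 17.7% of all such coding genes. Of other coding genes, 809 of the 1347 in the top of either list were in the top of both. All 3 proteasome genes belonged to the regulatory particle, while the core particle had 5 genes in the top of either list and none in the top of both. That count of 0 of 9 core genes with a region in both lists allows a share of up to 33.3%.

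Over the 20 proteasome genes with a region in both lists, log2 signal in the replicates had a Pearson's r of 0.83 and a Spearman's rho of 0.78, against 0.81 and 0.65 over 4560 other coding genes. These coefficients are across genes, which share each library, and are given as a description. Replicate 2 holds 13 mitochondrial regions among its 1497 strongest and replicate 1 none, which moves ranks in replicate 2 by at most 13.

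**Figure D2:**
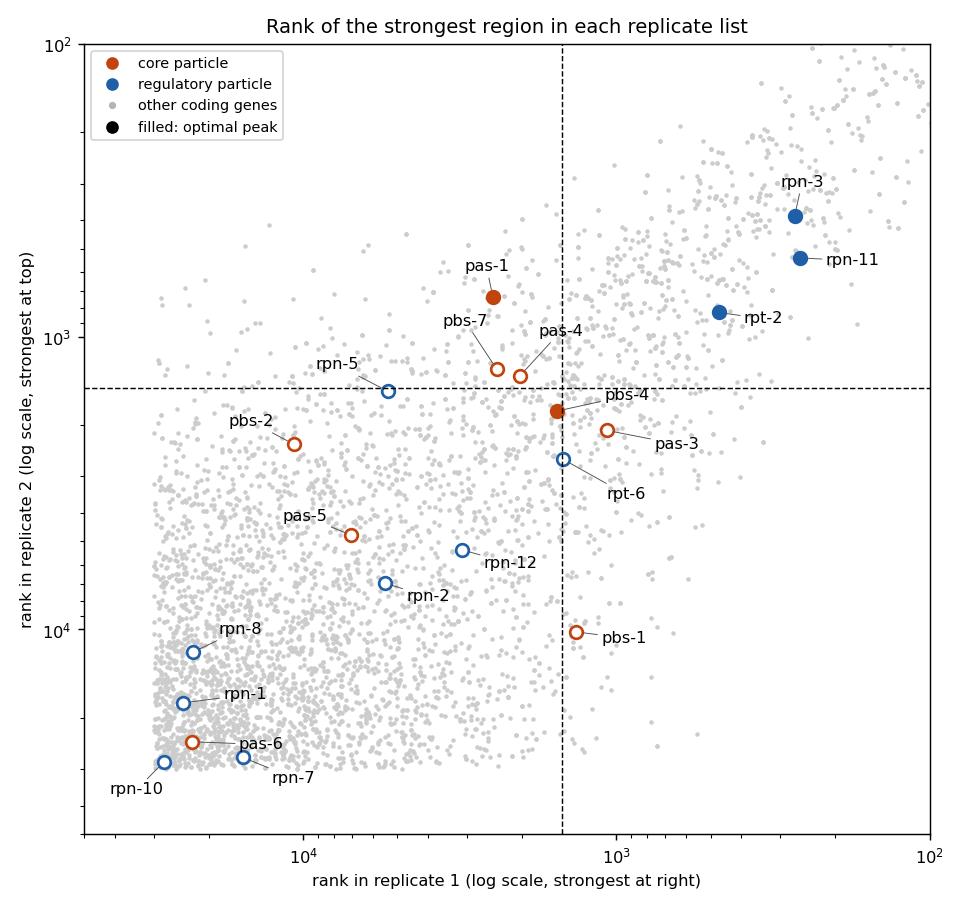
Rank of the strongest region in the promoter window in replicate 1 (horizontal) and replicate 2 (vertical), on log axes with stronger regions toward the top right, for the 20 proteasome genes with a region in both lists; filled points are optimal peaks, grey points are other coding genes, and dashed lines mark rank 1497. Only rpn-3, rpn-11 and rpt-2 lie past both lines, while pas-1 and pbs-4 are optimal peaks outside at least 1 of them. The 2 ranks of a gene need not come from the same region. Other coding genes ranked above 100 are outside the axes.

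Most proteasome regions sat close upstream of the 5′ end, and most were shared with a neighbouring gene. The median distance from summit to 5′ end was 240 bp over the 24 members (interquartile range 148 to 423), against 321 bp (146 to 612) over other coding genes. Of the 24 summits, 17 (70.8%) were within 500 bp upstream, against 54.6% for other coding genes. The strongest summits of pas-1, pas-5, pas-6, rpn-1 and rpn-10 were the exceptions farthest out, between 846 and 954 bp upstream, and that of pas-2 alone was downstream, by 79 bp. Slightly weaker regions of pas-5 (21.1), pas-6 (13.03) and rpn-10 (12.9) lay closer, 405 and 74 bp upstream and 28 bp downstream. The strongest regions of these genes had 22.6, 13.53 and 14.4.

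**Figure D3:**
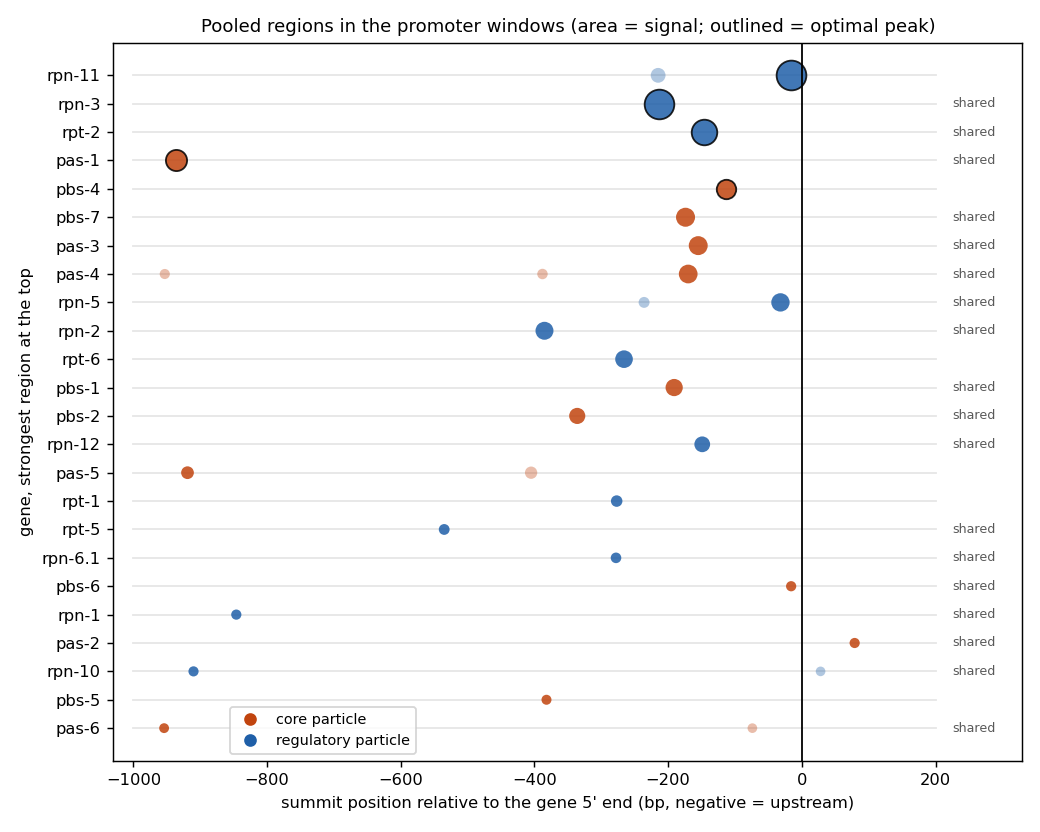
Position of each pooled region's summit relative to the 5′ end of the gene (horizontal axis, bp, negative upstream) for the 24 proteasome genes with a region, ordered from the strongest at the top; point area is proportional to signal, paler points are weaker regions of the same window, and outlined points are optimal peaks. Of the 24 strongest summits, 17 lie within 500 bp upstream, and the word "shared" marks the 18 genes whose strongest region also lies in the window of another coding gene.

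The region of 18 of 24 members (75%) also counted for another coding gene, against 27.6% of other coding genes. The loci were also laid out differently: 23 of 33 proteasome genes (69.7%) had an upstream neighbour on the opposite strand, against 46.2% of other coding genes. The partners are genes of varied function. The region of pas-4 was shared with rpb-3, an RNA polymerase II subunit gene, that of pbs-2 with eif-6, a translation initiation factor gene, and that of rpn-5 with scc-1, a cohesin subunit gene. The region of rpn-12, a lid subunit gene (signal 34.6, rank 3030), was shared with rad-23, whose product carries ubiquitinated proteins to the proteasome, and lay 149 bp from rpn-12 and 246 bp from rad-23.

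The comparison with other genes was not the same in both layouts. Among genes whose region was shared, 3 of 18 proteasome genes (16.7%) had an optimal peak, against 31.1% of 2076 other coding genes, so the order was the reverse of that over all genes with a region. Among genes whose region was not shared, the counts were 2 of 6 (33.3%) and 8.87% of 5443. The median signal of shared regions was 38.9 for proteasome genes and 29.6 for other coding genes, and the 7 proteasome genes at ranks 1498 to 2994 made up 38.9% of those with a shared region, against 12.1% of others. With chromosome X left out, where no proteasome gene lies, 15.8% of other coding genes with a region had an optimal peak. The parts played by layout and by gene family in these shares were not tested.

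**Figure D4:**
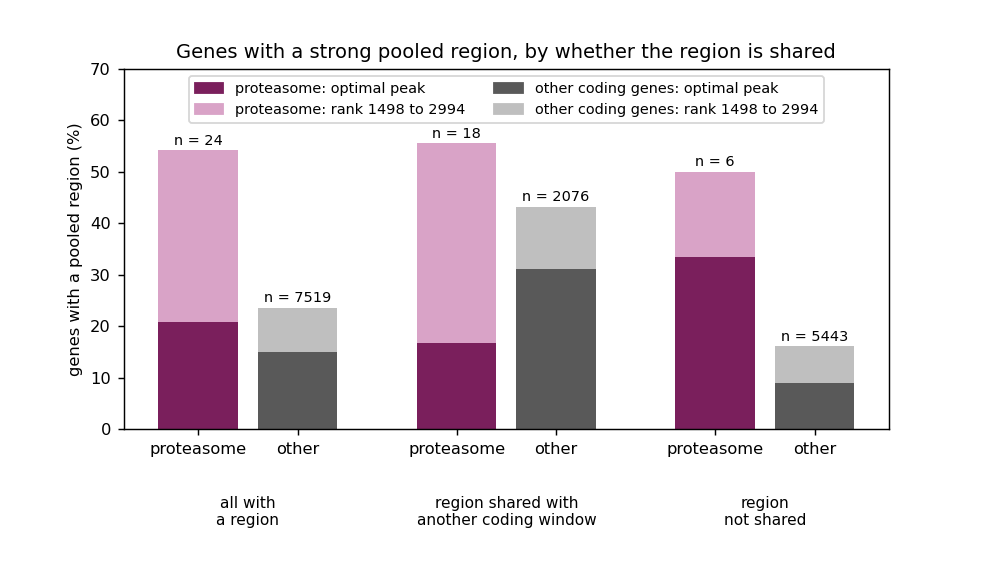
Percent of genes with a pooled region whose strongest region was an optimal peak (dark) or ranked 1498 to 2994 (pale), for proteasome genes and other coding genes, over all genes with a region and split by whether the region also lies in the window of another coding gene; n is the number of genes with a region. With shared regions the dark share is 16.7% for proteasome genes and 31.1% for other coding genes, while the pale share is 38.9% and 12.1%.

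Assigning each summit only to its nearest coding 5′ end left 16 of 33 proteasome genes with a region, against 6396 of 19952 other coding genes. An optimal peak lay at 4 of the 16 proteasome genes (25%), against 12.3% of the 6396. The peak lost was that of pas-1, which went to rpoa-12. Among the genes just below the list, the regions of pas-3, pas-4, pbs-7 and pbs-2 also lay nearer to the neighbour, those of rpn-5, rpt-6 and pbs-1 lay nearer to the proteasome gene, and that of rpn-2 lay 385 bp from each.

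Matches to the SKN-1 sequence were more frequent at proteasome genes than at other genes. From 250 bp upstream to 50 bp downstream of the 5′ end, 11 of 33 proteasome genes (33.3%) had a match to WWTRTCAT on either strand, against 16.5% of 19940 other coding genes. They were 4 core particle genes and 7 regulatory particle genes. Within 50 bp of the summit, 4 of 24 proteasome regions (16.7%) had a match, against 4.76% of 7921 other pooled regions in coding windows and 1.73% of 809 other optimal peaks there. The 4 were at rpn-11, rpt-2, rpn-12 and pbs-6, of which the last is a weak region (signal 14.6).

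The exact form ATTGTCAT, singled out after the matches were seen, was in the promoters of 5 proteasome genes (15.2%), against 1.91% of other coding genes. Besides rpn-11, rpt-2 and rpn-12, shown above, these were pas-2 and pbs-1, where it is on the opposite strand and reads ATGACAAT along the gene. The promoters of pas-6, pbs-6 and rpn-2 carried TTTGTCAT instead. The 30 bases around these matches are given on the strand of the named gene, with the match in capitals, at chrV:10770246-10770275 (pas-2), chrIV:1709872-1709901 (pbs-1), chrV:5584521-5584550 (pas-6), chrIII:8244130-8244159 (pbs-6) and chrIII:6198941-6198970 (rpn-2).
pas-2: cagttcgaatgATGACAATttcaccgggtt
pbs-1: attgagatttgATGACAATgttttttctgc
pas-6: tactcgcttatTTTGTCATcctttcaaatt
pbs-6: attaattgaatTTTGTCATattgaatattt
rpn-2: tttggacgaaaTTTGTCATtcgcaatcatt

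Of the 11 genes with a match to WWTRTCAT in the promoter, 7 were among the 14 genes of the higher signal set, 3 among the 10 of the lower set (pas-2, pas-6 and pbs-6) and 1, rpn-8, had no pooled region. The sets were drawn after the signals were seen, so these counts are a description only. Match and strongest summit were not always close: at pas-6 the match began 196 bp upstream of the 5′ end and the strongest summit lay 954 bp upstream. A second region of pas-6, of nearly the same signal (13.03 against 13.53), had its summit 74 bp upstream. A match to letters is a description of sequence and shows no binding by SKN-1.

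The Sox cores gave no single picture. The sequence WWCAAWG was within 50 bp of 3 of 24 proteasome summits (12.5%), against 15.1% of other pooled regions. Within 100 bp the order was the other way, with 9 of 24 (37.5%), against 28.6%. The shorter ACAAT was at 12 of 24 (50%), against 28.0%, but the SKN-1 form ATTGTCAT contains its reverse complement. Leaving out matches that overlap WWTRTCAT gave 10 of 24 (41.7%), against 27.4%. The SOX-4 binding sequence itself was not determined here.

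Other motifs differed in both directions. The E-box CANNTG was within 50 bp of 13 of 24 proteasome summits (54.2%), against 31.5% of other pooled regions. The GAGA repeat, at 8.61% of other pooled regions and 16.7% of other optimal peaks, was at 0 of 24, which allows a share of up to 12.5%. Over the 300 bases of the promoters these differences were not seen: CANNTG was in 66.7% of 33 proteasome promoters and 69.4% of other promoters, and GAGAGA in 18.2% and 21.8%. The canonical E-box CACGTG was also at 0 of 24, against 2.08%, the TATA box TATAAA at 5 of 24 (20.8%, against 15.05%) and the heat shock element unit at 1 of 24 (4.17%, against 6.77%). GC content within 50 bp of the summit was 39.2% ± 6.95 (SD over 24 windows) at proteasome genes, 35.1% ± 10.1 at other pooled regions and 45.5% ± 9.44 at other optimal peaks, and its part in the motif shares was not tested.

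Over all coding genes, 37.7% held a pooled region and 15.0% of those an optimal peak, and the lists of the ubiquitin pathway spread to both sides of these shares. Among E2 conjugating enzyme genes (ubc-), 17 of 21 held a pooled region and 7 of the 17 an optimal peak, with ubc-3 at 84.3, ubc-6 at 82.9, ubc-7 at 77.1 and ubc-25 at 75.96. This list was taken by name and includes ubc-9 and ubc-12, which are counted again below with the SUMO and NEDD8 genes. Of the 7 genes with an optimal peak, 1 is ubc-9. A single peak of 51.7 counted for both ubc-21 and ubc-22, so the 7 genes rest on 6 peaks. Of 7 genes for ubiquitin and E1 enzymes, 4 held a region and 2 an optimal peak, at ubq-2, a ubiquitin fusion gene (126.8), and uba-2, a SUMO E1 subunit gene (66.9). The polyubiquitin gene ubq-1 had 40.7, below the optimal list, and uba-1, the ubiquitin E1 gene, had no pooled region.

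Of 13 genes for CDC-48 and degradation from the endoplasmic reticulum, 7 held a region and 2 an optimal peak. These were cdc-48.1, the segregase that extracts ubiquitinated proteins (signal 321.0, rank 28), and ufd-3, a CDC-48 cofactor gene (186.6), both far above any proteasome gene. Of 8 annotated genes for proteasome regulators and shuttle factors, 4 held a region and 1 an optimal peak (aip-1, 69.8). The shuttle gene ubql-1 had 45.4 and the deubiquitinase gene usp-14 had 41.4. Cullin and Skp genes held a region at 8 of 13 and an optimal peak at none of the 8, which allows a share of up to 37.5%, with elb-1 the highest at 44.9. The SUMO and NEDD8 genes all had a region, 4 of 4, and ubc-9 alone an optimal peak (66.2).

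None of skn-1, ddi-1 and png-1, the genes of the route that induces proteasome genes, held a pooled region in its window. The exact interval of that share, over 3 genes, was 0 to 70.8%. It includes the 37.7% of all coding genes, so the count does not set these 3 genes apart. In replicate 1, skn-1 and ddi-1 had regions at ranks 27122 and 28294, near the end of the list, and in replicate 2 none of the 3 had one.

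Set beside other large complexes, the proteasome had a smaller share with an optimal peak (20.8% of 24) than ribosomal protein genes. Of 69 cytosolic ribosomal protein genes with a region, 38 (55.1%) had an optimal peak, with a median signal of 58.6. Of 5 cct genes with a region, which encode the TRiC chaperonin, 3 had an optimal peak (60%, exact 95% interval 14.7 to 94.7). They were led by cct-1 (206.8) and cct-8 (191.4). With only 5 cct genes the interval includes 20.8%, so it does not place the cct share above that of the proteasome. The COP9 signalosome shares a fold and domain types with the proteasome lid. Of its 6 csn genes, 2 held a region, at csn-1 (48.5) and csn-5 (28.6), and neither was an optimal peak. With only 2 genes the exact 95% interval of that share was 0 to 84.2, which does not place it below the proteasome. The median signal of the 2 was 38.5, against 38.9 for the proteasome genes with a region.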

How the data were processed

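The ChIP-seq regions come from 2 biological replicates of 1 group, per the labels. The authors deposited regions called with a control alignment on each replicate and on both together, and an optimal list obtained from these by the irreproducible discovery rate, per the file notes. The sources used here do not give the peak caller or its thresholds. The deposited signal column ranks and describes regions within a list, and its scale is not stated. Lists on ce10 were not used. Gene 5′ ends came from Ensembl release 115 for WBcel235, the assembly of ce11, and sequence from RefSeq. No region ran past the end of its chromosome. Coordinates are 1-based.

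Members and lists were chosen with earlier results of these data known. Every member could be named, with full values for those with an optimal peak and the 3 next below, and in other lists up to 4 genes of highest signal and skn-1. The exceptions uba-1, ubc-21, ubc-22, ddi-1 and png-1 were named after their values were seen. Of the listed proteasome regulators, 2 symbols were not annotated. Alternatives covered windows, overlap, gene assignment, thresholds and each replicate alone. Motifs were sought on both strands. Assignment and motif search were tested on simulated data. Exact intervals are Clopper-Pearson. Python 3.11.15, numpy 2.4.6, pandas 2.3.3, scipy 1.17.1 and matplotlib 3.10.9 were used.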

Additional observations from a re-analysis of the deposited data

How the results depend on the processing

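From each replicate list alone, with its 1497 strongest regions in place of the optimal peaks, the shares with such a peak ran from 25% to 27.3% for proteasome genes, 20% to 30% for the core particle, 21.4% to 33.3% for the regulatory particle and 13.9% to 14.5% for other coding genes. The share of proteasome genes with a region ran from 66.7% to 72.7% and their median signal from 16.8 to 19.9, on the scale of the replicate lists. The order of the particles depended on the list: the core share was the higher in replicate 2 (30% against 21.4%) and the lower in replicate 1 (20% against 33.3%). A window of 2000 bp upstream to 500 bp downstream also turned it (33.3% core, 21.4% regulatory), as did counting any overlap with the window (33.3% and 25%) and taking the 2994 strongest regions (58.3% and 50%).

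With the nearest 5′ end alone, the share of proteasome genes with a region fell to 48.5%. Other coding genes with a region fell as well, to 6396 of 19952 in place of 7519. For other coding genes the share with an optimal peak was 18.0% with a window of 500 bp upstream to 100 bp downstream, 14.1% with the wider window, 13.9% with any overlap, 12.3% with the nearest 5′ end, 8.98% with the 748 strongest peaks and 31.1% among genes with a shared region. The 748 strongest peaks left 0% of core particle genes. With the 2994 strongest regions, chosen after the data were seen, the shares were 54.2% for proteasome genes, 58.3% for the core particle, 50% for the regulatory particle and 23.6% for other coding genes. Each is a change in which regions count. The Sox core WWCAAWG within 100 bp of the summit was at 37.5% of proteasome regions and 28.6% of other pooled regions, the reverse of the order within 50 bp (12.5% and 15.1%). Of the alternatives to the main shares and median, 12 moved the value beyond its interval or spread and 40 did not. The intervals of the proteasome shares are wide (2.09 to 48.4 for the core particle), and that of other coding genes is narrow. A core share of 33.3% in place of 16.7% therefore counted as not moved, although it turned the order of the particles. The tally depends on these widths and does not measure how stable the shares are.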
